A study of Mus musculus with 12 samples.

Results

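After systemic LPS, microglia of 3- and 14-month-old mice opened 611 chromatin regions that no PBS library of those ages showed, out of 48244 regions found in the whole series. The 611 regions were chosen by their measured calls. Peaks from all 12 libraries on chromosomes 1 to 19 and X were merged where they shared at least 1 bp, and a region was kept if it held a peak in all 4 LPS libraries of 3 and 14 months, in none of the 4 PBS libraries of those ages, and in at most 1 of the 2 PBS libraries of 24 months. Their calls at 3 and 14 months are therefore a description and carry no test. The calls in 24-month LPS microglia, the position of the regions, their rank among the peaks of a library and their sequence were not used to choose them. Rank is still tied to the rule, since a peak is called only above a threshold. The regions lay mostly in introns and between genes, and 54.0% of them carried the AP-1 consensus. Both 24-month LPS libraries called 260 (42.6%), against 64.3% of all merged regions and 11.9% of the regions called in 4 to 7 libraries. By the rule the 611 regions lie within the latter set, and supply 260 of its 779 regions called in both. These 24-month libraries differed, with 85.1% of the 611 regions called in the first and 47.8% in the second.

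The libraries were ATAC-seq libraries of microglia from wild-type C57BL/6J female mice aged 3, 14 or 24 months. Mice had received lipopolysaccharide (LPS) or phosphate-buffered saline (PBS, the vehicle) by intraperitoneal injection. Each of the 6 groups of age and treatment held 2 libraries, and each library pooled the microglia of 2 to 3 mice, so that replicates differ as pools and not as single animals. The peak lists held 28578 to 41501 peaks on the chromosomes used, and read depth is unknown because the lists carry no counts. Promoters of 14 of 15 microglial marker genes held a peak in every LPS library and of all 15 in every PBS library, with no peak at Gpr34 after LPS. Among 12 granulocyte markers 1 to 2 promoters held a peak in a library (Csf3r in all 12 libraries, S100a8, S100a9 and Ly6g in none), among 12 monocyte and border macrophage markers 0 in LPS and 0 to 2 in PBS libraries, and among 12 lymphocyte markers 0. Among 12 markers each, oligodendrocytes had 2 to 4 (Cnp and Pdgfra in all 12 libraries), endothelial cells and pericytes 1 to 4, astrocytes 0 to 3 and neurons 1. Their part in the results was not tested.

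ATAC-seq marks DNA that is accessible to the Tn5 transposase, such as active promoters and enhancers. Microglia are the resident macrophages of the brain, and LPS, a component of the outer membrane of Gram-negative bacteria, is sensed through Toll-like receptor 4. That receptor feeds NF-κB, which is held in the cytoplasm by IκB proteins until they are degraded, and the MAP kinases, which raise the activity of AP-1, a dimer of FOS and JUN proteins. In macrophages, signal-dependent factors of this kind bind enhancers alongside lineage factors such as PU.1, C/EBP and RUNX proteins. Cytokines released in turn act through JAK kinases and STAT factors, and feedback inhibitors such as IκBα, the SOCS proteins and MAP kinase phosphatases limit the response.

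The sequence most often shared by the LPS-opened regions was the AP-1 consensus, TGANTCA. Within 150 bp of the summit it was present in 6 of the 12 regions with the largest peaks near protein-coding genes and absent from the other 6, those of Slamf1, Stat3, Srp9, Ldlrad4, Frrs1l and Mt2. Printed here are the 75 bp to each side of the summit (GRCm38/mm10, + strand, 5′ to 3′) of the 5 with the largest peaks among these 12 regions. Capitals mark a consensus match, and windows that overlapped an annotated UTR or held no match were passed over. The first 4 windows held AP-1 matches and the Slamf1 window held an interferon-response element (GAAANNGAA).
Mgme1 region (chr2:144301104-144301254): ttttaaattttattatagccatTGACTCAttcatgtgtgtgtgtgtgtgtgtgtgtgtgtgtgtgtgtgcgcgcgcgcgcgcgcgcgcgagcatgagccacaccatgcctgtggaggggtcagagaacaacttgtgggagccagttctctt
Nsmce1 region (chr7:125503552-125503702): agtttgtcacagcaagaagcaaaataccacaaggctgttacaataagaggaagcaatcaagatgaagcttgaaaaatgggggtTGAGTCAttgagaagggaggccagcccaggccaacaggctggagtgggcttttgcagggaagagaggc
Dusp2 region (chr2:127323017-127323167): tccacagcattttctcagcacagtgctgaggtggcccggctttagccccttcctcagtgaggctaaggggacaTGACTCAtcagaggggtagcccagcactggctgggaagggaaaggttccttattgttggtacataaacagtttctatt
Nckap1l region (chr15:103471625-103471775): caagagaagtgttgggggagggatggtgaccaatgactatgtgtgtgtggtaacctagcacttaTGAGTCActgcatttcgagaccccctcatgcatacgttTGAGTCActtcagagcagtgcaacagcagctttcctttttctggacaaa
Slamf1 region (chr1:171762133-171762283): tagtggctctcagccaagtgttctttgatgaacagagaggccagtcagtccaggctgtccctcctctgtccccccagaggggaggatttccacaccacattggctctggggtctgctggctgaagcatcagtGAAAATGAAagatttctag

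Of the 56 regions nearest to genes of the 14 functional lists, 24 held an AP-1 match (42.9%) and 32 did not, Stat3, Map3k8, Tnip1, Ccl5 and Cxcl10 among the latter. The next windows show, of those that held AP-1 in the printed window, the 4 of highest rank that were not printed above. In the Cflar window a C/EBP match (TTGCNNAA) and a STAT match (TTCNNNGAA) also stand in capitals, and in the Il1rn window an E-box (CACGTG). The Bach1 window held 3 AP-1 matches.
Cflar region (chr1:58720173-58720323): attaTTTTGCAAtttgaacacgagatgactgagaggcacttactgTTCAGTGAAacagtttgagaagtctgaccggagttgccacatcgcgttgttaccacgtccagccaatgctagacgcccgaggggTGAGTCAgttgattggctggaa
Bach1 region (chr16:87724916-87725066): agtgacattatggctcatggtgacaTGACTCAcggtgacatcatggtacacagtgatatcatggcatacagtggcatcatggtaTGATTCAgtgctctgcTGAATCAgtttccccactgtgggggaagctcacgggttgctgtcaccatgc
Il1rn region (chr2:24341525-24341675): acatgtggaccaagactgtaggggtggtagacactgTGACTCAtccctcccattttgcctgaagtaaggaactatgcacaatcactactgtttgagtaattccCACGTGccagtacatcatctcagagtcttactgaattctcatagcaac
Nfkbia region (chr12:55467005-55467155): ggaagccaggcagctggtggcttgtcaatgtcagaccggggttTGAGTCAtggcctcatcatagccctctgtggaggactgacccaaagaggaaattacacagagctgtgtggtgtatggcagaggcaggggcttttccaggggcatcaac

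The last 3 windows were chosen among listed regions not printed above, by the highest rank with a match in the printed window. They show a C/EBP match near B4galt5, a STAT match near Cebpd and an NF-κB match (GGANTTTCC) near Ccr7.
B4galt5 region (chr2:167358742-167358892): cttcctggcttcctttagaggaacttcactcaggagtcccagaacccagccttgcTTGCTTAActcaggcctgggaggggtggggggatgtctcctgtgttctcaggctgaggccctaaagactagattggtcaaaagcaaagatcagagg
Cebpd region (chr16:15948289-15948439): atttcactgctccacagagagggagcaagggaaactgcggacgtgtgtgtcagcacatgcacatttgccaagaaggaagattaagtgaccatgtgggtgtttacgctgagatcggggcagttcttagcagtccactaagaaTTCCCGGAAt
Ccr7 region (chr11:99164958-99165108): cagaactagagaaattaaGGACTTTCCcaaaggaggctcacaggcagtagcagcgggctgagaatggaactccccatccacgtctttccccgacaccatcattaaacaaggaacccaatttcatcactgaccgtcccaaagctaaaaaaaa

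A match to TGANTCA within 150 bp of the summit was present in 330 of the 611 regions (54.0%), against 12.9% of all merged regions in windows of the same length. Regions of middling sharing, called in 4 to 7 of the 12 libraries, held it in 16.2% of cases. Their median GC content was 49.2%, against 48.8% in the LPS-opened regions. The LPS-opened regions lie within this set and supply 330 of its 1058 regions with a match. The mirror set lies within it too. Its 606 regions had a peak in all 4 PBS libraries of 3 and 14 months. They were called in no LPS library of those ages and in at most 1 LPS library of 24 months. A match was present in 4.79% of them. At least 2 matches stood in 11.9% of LPS-opened regions and 1.32% of all regions. The match nearest to the summit lay a median of 28.5 bp away, against 46 bp over all regions with a match. It lay within 25 bp of the summit in 46.7% of LPS-opened regions with a match and in 31.4% over all. With C or G required in the middle position, the share was 46.6% against 9.87% of all regions.

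The AP-1 share was similar in strong and weak regions. From the lowest to the highest quartile group by area it was 54.9, 54.2, 52.6 and 54.2%. By position it was 40.8% of the 71 promoter regions, 58.0% of the 317 regions in introns and 53.7% of the 205 intergenic regions. Regions just short of the rule, with a peak in 3 of the 4 younger LPS libraries, held the match in 37.9% of 557 cases. Those with a peak in 1 younger PBS library held it in 30.6% of 98, and those with peaks in both 24-month PBS libraries in 56.0% of 277.

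The consensus sequences of C/EBP and STAT proteins were also more frequent than over all regions, while those of NF-κB and the cyclic AMP response element were near the overall share. The C/EBP consensus was present in 158 regions (25.9% against 13.1%) and the STAT consensus in 98 (16.0% against 8.72%). AP-1 and C/EBP matches stood together in 74 regions (12.1% against 1.87%). At least 1 of AP-1, the cyclic AMP response element TGACGTCA, C/EBP, STAT and NF-κB was present in 76.4% of the regions, against 32.8% of all regions. The NF-κB consensus was searched only as GGANTTTCC, so sites spelt otherwise were not counted. That spelling was present in 15 regions (2.45% against 1.82%). The share of TGACGTCA alone was 1.47% against 1.37%.

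The consensus of PU.1 was about as frequent as over all regions, and those of CTCF and the GC box were rarer, in the mirror set too. The PU.1 consensus GAGGAAGT was present in 10.3% of LPS-opened regions and 11.3% of all regions, and the RUNX consensus TGTGGTT in 10.3% and 7.83%. The interferon-response element was present in 11.1% and 11.0%. The core of the insulator protein CTCF (AGNNGGCGC) was present in 3 regions (0.491% against 7.84%), the GC box bound by SP1 (GGGGCGGGG) in 6 (0.982% against 7.42%) and the E-box CACGTG in 28 (4.58% against 7.40%). In the PBS-only mirror set CTCF stood at 1.98% and the GC box at 0.990%, and in the regions called in 4 to 7 libraries at 5.98 and 2.76%. The glucocorticoid response element was present in 0.818% and 0.688%, and the MEF2 site in 1.31% and 0.879%. None of the 13 sequences was found in 78 regions (12.8% against 36.1%). Both strands were searched and matches of different sequences may overlap. A match says only that these letters are present, and regions were not tested as replicates.

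**Figure D1:**
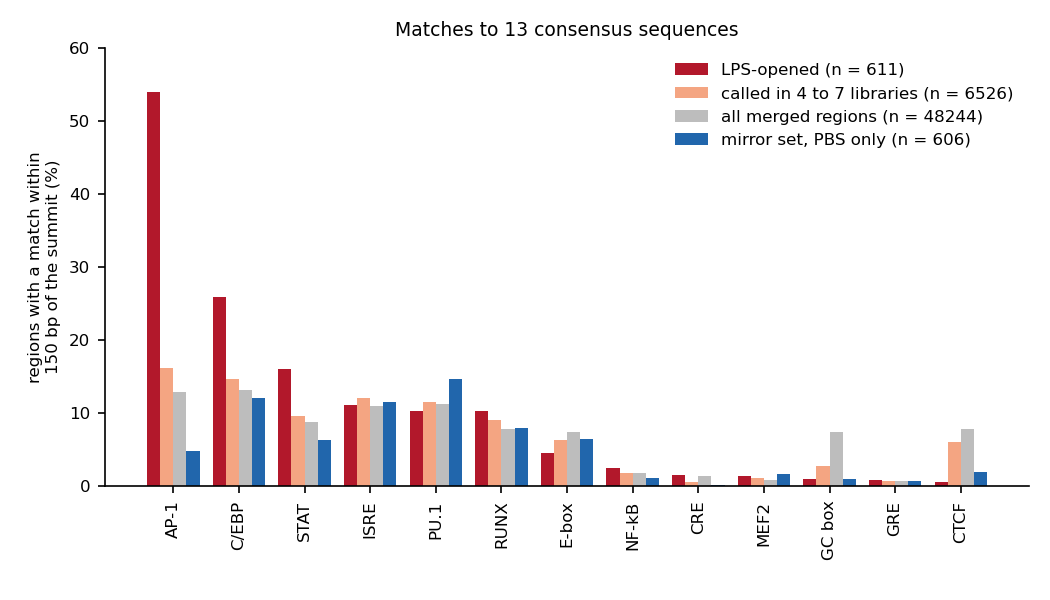
Share of regions (vertical axis, %) with a match to each of 13 consensus sequences (horizontal axis) within 150 bp of the summit, in 611 LPS-opened regions (red), 6526 regions called in 4 to 7 libraries (orange), all 48244 merged regions (grey) and the 606 regions of the PBS-only mirror set (blue). AP-1 reaches 54.0% of LPS-opened regions and stands at 16.2% or less in the other sets. CTCF and the GC box are below 1% in LPS-opened regions, and the GC box in the mirror set too. The regions called in 4 to 7 libraries include the LPS-opened regions and the mirror set.

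The LPS-opened regions were narrower and lay farther from promoters than the set of all merged regions, as did the regions called in 4 to 7 libraries and the mirror set. On mm10, with positions counted from 1, their median width was 361 bp (range 206 to 1184), against 436 bp over all regions. Within 1 kb of a transcription start site (TSS) lay 71 regions (11.6%), against 28.8% of all regions. Introns held 317 (51.9% against 40.4%), of which 180 were first introns (29.5% against 18.1%), intergenic sequence held 205 (33.6% against 26.7%) and exons 18. The median distance to the nearest TSS was 9.69 kb, against 5.45 kb over all regions, and 9 regions lay over 100 kb away. Among the regions called in 4 to 7 libraries are the LPS-opened regions and the mirror set. That whole set had a median width of 309 bp, 13.8% at promoters, 49.4% in introns and a median distance of 8.75 kb. The mirror set had 314 bp, 5.78%, 55.8% and 13.8 kb. The LPS-opened regions were found on all 20 chromosomes used, from 7 on X to 61 on chromosome 2, and per region called on a chromosome their share ran from 0.771% on X to 1.97% on chromosome 16.

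Many of them stood beside chromatin that was open in every library. The median gap to the nearest region called in all 12 libraries was 4.77 kb (8.09 kb over all regions), and 408 regions (66.8% against 54.9%) had one within 10 kb. Of the 540 regions outside promoters, 408 (75.6% against 70.3% of such regions overall) had a nearest protein-coding gene whose own promoter was called in all 12 libraries. A total of 93 regions (15.2%) lay within 50 kb of another LPS-opened region.

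Within a region the summits of the 4 younger LPS libraries spanned a median of 36 bp, and 100 bp or less in 565 regions (92.5%). The rule merged overlapping peaks and required all 4, so that summits close to each other are in part a result of the choice.

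Peak size was compared as the percentile of the peak area within its own list, since areas are not normalised between libraries. The area is a score that sums significance over the length of a peak, and the lists hold no area below 200. In 3-month LPS microglia the median percentile of the regions was 30.3 in replicate 1 and 31.9 in replicate 2. In 14-month LPS microglia it was 33.0 and 20.0. The regions were thus mid-sized to small peaks in their lists, and with pooled cells a peak that is small in every cell cannot be told apart from one present in fewer cells. Their rank is not independent of the rule, which required no peak in the younger PBS lists. Of these 4 libraries the lowest ranks were in the second of 14 months, whose list was the shortest of the series (28578 peaks). Over 4 libraries a region's median percentile ran up to 72.3, with a median of 28.7. The significance at the summit gave a like picture, with medians of 3.70 to 4.14 (−log10 p) for these regions in the 4 libraries, against 4.56 to 4.88 for all regions called there. Across regions, the ranks of the younger LPS libraries gave Spearman's rho of 0.743 between the 3-month and 0.722 between the 14-month libraries (611 regions each, a description in which regions share libraries).

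The second 14-month LPS library also set the edge of the rule. Of the 557 regions with a peak in 3 of the 4 younger LPS libraries and otherwise meeting the rule, 468 lacked it there, and 51, 26 and 12 lacked it in another of the 4. Their median percentile was 15.3. A further 98 regions had a peak in 1 younger PBS library (median percentile 26.7), and 277 had peaks in both 24-month PBS libraries (median percentile 38.9). Without the second 14-month LPS library 1079 regions met the rule, and 45.4% of them held the AP-1 consensus.

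**Figure D2:**
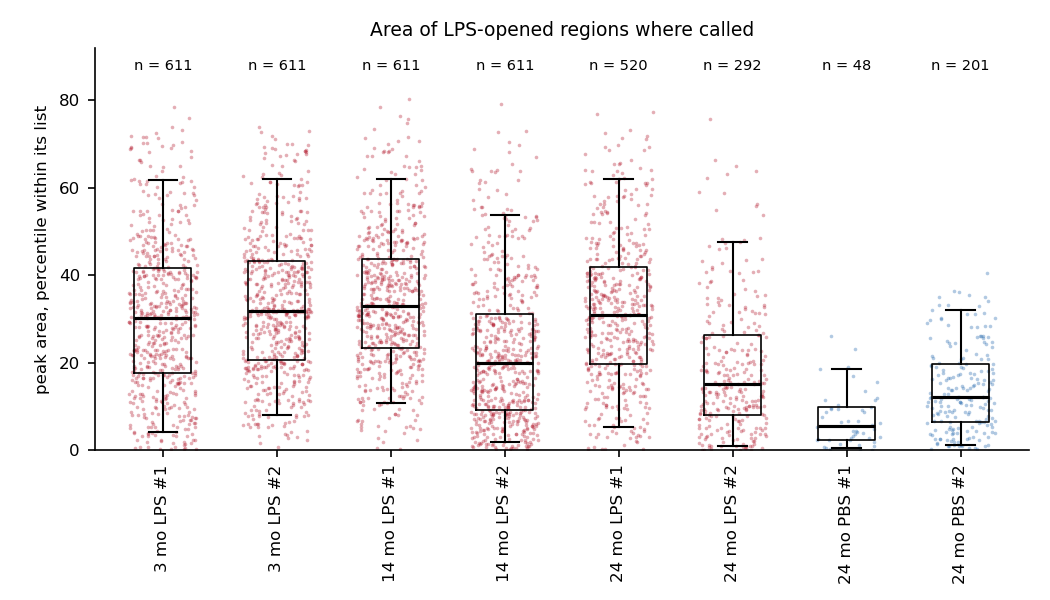
Peak area as a percentile within its list (vertical axis) for each LPS-opened region with a peak in the library (horizontal axis; # gives the replicate), LPS in red and 24-month PBS in blue, with boxes for the median and quartiles and whiskers for the 5th and 95th percentiles. Medians are 30.3 to 33.0 in the first 3 younger LPS libraries and 31.0 in the first 24-month LPS library, 20.0 in the second 14-month and 15.0 in the second 24-month LPS library, and 5.41 and 12.1 in the 24-month PBS libraries.

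In aged microglia the LPS-opened regions were met by one LPS library far more often than by the other. The first 24-month LPS library had a peak in 520 of the 611 regions (85.1%, 95% Wilson interval 82.1 to 87.7), and in 70.2% of all merged regions. The second had one in 292 (47.8%, interval 43.9 to 51.8), and in 75.4% of all merged regions. These intervals cover counting over regions and not the spread between mice. The second library's list held 37160 peaks and the first library's 35139.

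Both 24-month LPS libraries called 260 regions (42.6%). Of all merged regions 64.3% were called in both, most of them being open in every library. Of the regions called in 4 to 7 libraries 11.9% were. That set contains the 611 LPS-opened regions, which supply 260 of its 779 regions called in both. It also contains the mirror set, which by its own rule supplies none. A single 24-month LPS library called 292 regions (47.8%), 260 of them in the first and 32 in the second. Neither called 59 (9.66%, against 18.8% of all merged regions).

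The second 24-month LPS library also called regions of the opposite kind. Of the 606 regions of the PBS-only mirror set it had a peak in 324 (53.5%), against 23 in the first 24-month LPS library. Since the mirror set by its rule allowed at most 1 of these libraries, only the inequality between them is informative here. The part of this library in the 24-month counts was not tested.

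**Figure D3:**
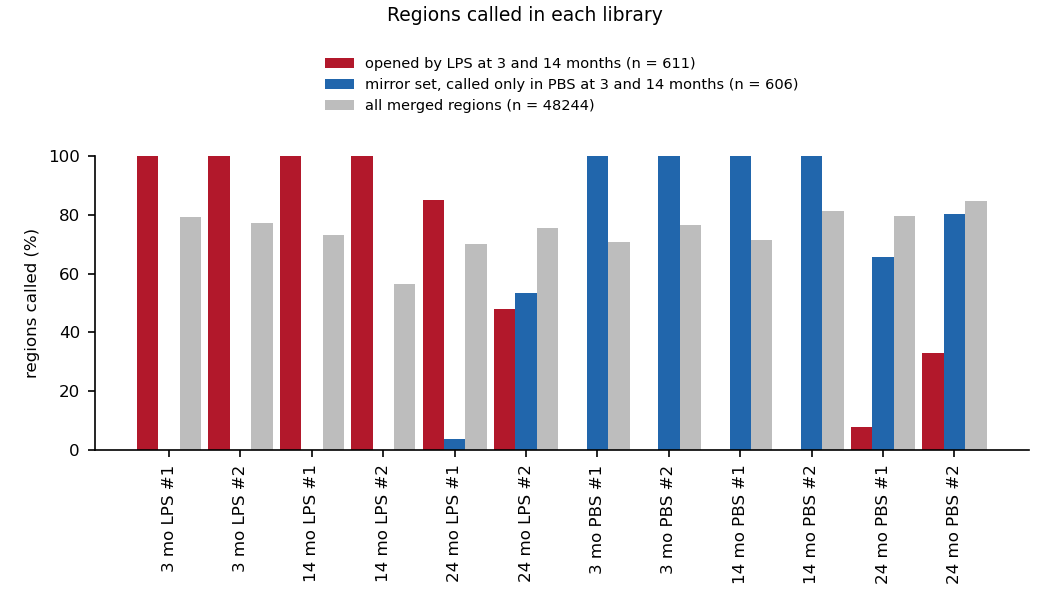
Share of regions with a peak (vertical axis, %) in each library (horizontal axis; # gives the replicate) for the 611 LPS-opened regions (red), the 606 regions of the mirror set (blue) and all 48244 merged regions (grey). Values of 0 and 100% at 3 and 14 months are set by the rules. At 24 months the first LPS library has 85.1% of LPS-opened regions and the second 47.8%, and the PBS libraries 7.86 and 32.9%.

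Without LPS, aged microglia showed some of these regions as small peaks. The first 24-month PBS library had a peak in 48 regions (7.86%) and the second, which has the longest list of the series (41501 peaks), in 201 (32.9%). Of all merged regions these libraries called 79.5 and 84.6%. The rule allowed 1 of the 2, so that a low rank of the regions in these libraries is in part a result of the choice. It left out 277 otherwise qualifying regions with peaks in both, whose median percentile in younger LPS microglia was 38.9. The median percentile was 5.41 in the first, where the same 48 regions had a median of 30.5 in younger LPS microglia, and 47 of the 48 stood lower than their mean there. In the second it was 12.1 against 31.8, and 180 of 201 stood lower. No 24-month PBS library called the remaining 362 regions. Of these 362, 128 were called in both 24-month LPS libraries, and 286 of all merged regions (0.593%) had that pattern of calls at 24 months. The 128 were 35.4% of the 362 regions and 44.8% of the 286.

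The stronger a region was in younger LPS microglia, the more often both aged LPS libraries called it. Calls depend on a threshold of peak size, and its part in this order was not tested. From the lowest to the highest quartile group by area percentile, 23, 42, 82 and 113 regions were called in both (15.0, 27.5, 53.9 and 73.9%). Neither library called 41, 12, 5 and 1. The median younger percentile was 38.2 for regions called in both, 24.3 for those called in 1 and 14.8 for those called in neither. Regions called in both 24-month libraries and regions called in neither had similar AP-1 shares, at 50.8 and 52.5%, and 58.8% of those called in the first only held it. STAT matches were present in 19.6, 13.1 and 13.56% of the regions called in both, in the first only and in neither.

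Where a region was called, its rank in the first 24-month LPS library was near that in younger microglia. The difference from the mean of the 4 younger LPS libraries had a median of -0.42 percentile points, with 255 regions higher and 265 lower. In the second 24-month LPS library the median difference was -16.8, with 27 higher and 265 lower. Among the 260 regions called in all 6 LPS libraries, the median percentile was 40.1 and 41.0 at 3 months, 40.3 and 27.1 at 14 months, and 33.8 and 15.4 at 24 months. Between 2 groups of 2 libraries the smallest two-sided exact permutation p is 0.333. No difference between ages was tested, nor the difference between the aged and the 4 younger LPS libraries.

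**Figure D4:**
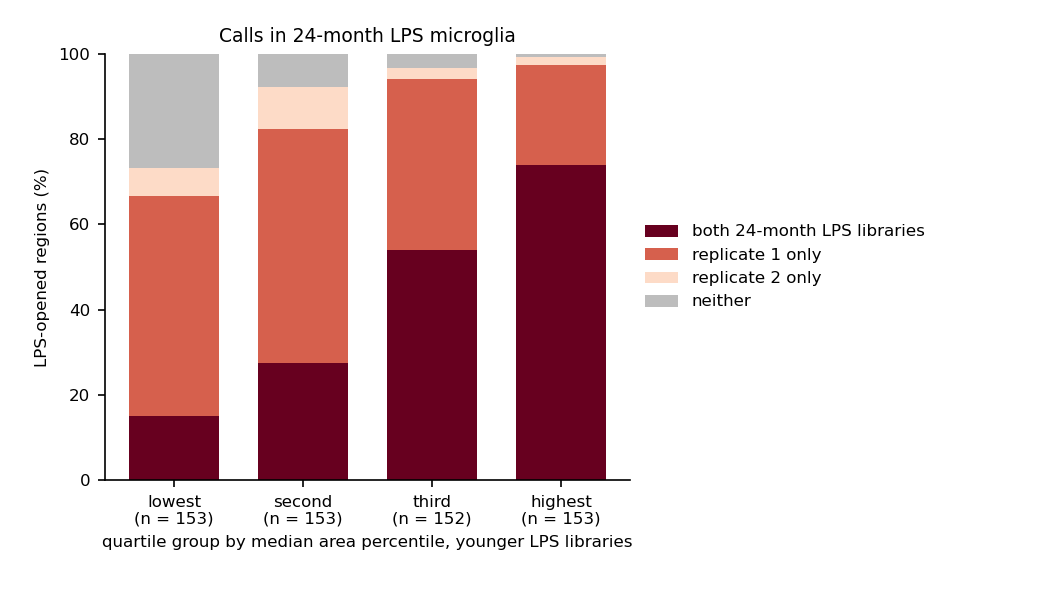
Share of LPS-opened regions (vertical axis, %) called in both 24-month LPS libraries (dark red), only in replicate 1 (red), only in replicate 2 (pale) or in neither (grey), by quartile group of the median area percentile in the 4 younger LPS libraries (horizontal axis). Calls in both make up 15.0% of the lowest and 73.9% of the highest quartile group, and calls in neither number 41 and 1 regions.

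The 12 largest LPS-opened peaks whose nearest gene is protein-coding lay near genes of varied roles, among them Dusp2, Stat3 and Mt2, which are described with their lists. The region of highest area lay 30.2 kb downstream of the TSS of Mgme1, a mitochondrial exonuclease (chr2:144300772-144301501). It stood at the 78.5 and 66.1 percentile at 3 months, 80.4 and 61.2 at 14 months and 73.2 and 59.0 at 24 months of LPS, and at 16.6 in the second 24-month PBS library. Its younger LPS values averaged 71.5 ± 9.33 (SD, n = 4), with one aged LPS value within their range and the other just below it. The region 12.03 kb upstream of Nsmce1, a subunit of the SMC5/6 complex of DNA repair (chr7:125503407-125504076), stood at 75.9, 73.8, 68.3 and 63.9 in the younger LPS libraries. At 24 months it stood at 58.0 and 75.7, and at 14.2 in the second PBS library. One aged LPS value lay below the younger range and the other within it.

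Regions of similar rank lay near Nckap1l, Slamf1 and Cyth4. The region in an intron of Nckap1l, the haematopoietic subunit of the WAVE complex that drives actin branching (chr15:103471407-103471996), stood at 61.0 and 60.4 at 3 months and 70.1 and 79.2 at 14 months. At 24 months it stood at 57.5 in the first LPS library and 5.53 in the second, below the 28.1 of the second PBS library. The region 4.92 kb upstream of Slamf1, a leukocyte receptor of the SLAM family (chr1:171761823-171762554), stood between 63.1 and 69.0 in the younger LPS libraries. It stood at 62.2 in the first 24-month LPS library and was not called in the second. The region 5.16 kb upstream of Cyth4, an exchange factor for ARF GTPases, stood at 50.8 to 66.4, and at 71.3 and 48.1 in the aged LPS libraries.

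The other regions of this rank lay near Srp9 of the signal recognition particle (53.0 to 69.1), Frrs1l, an assembly factor of glutamate receptors (53.6 to 68.4), Agfg2 (52.7 to 65.1) and Ldlrad4, an inhibitor of TGF-β signalling (38.5 to 64.9). All 4 were called in both 24-month LPS libraries, with lower percentiles in the second (9.99 to 46.1) than in the first (52.0 to 63.9). Some of the largest peaks lay beside unnamed transcripts. One in the first intron of Gm37228 (nearest protein-coding gene Tet2, a DNA demethylating enzyme) stood at 67.4 to 76.4 in the younger LPS libraries and at 76.9 and 26.8 in the aged ones.

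Over all 611 regions the nearest gene was protein-coding in 328 (53.7%, against 63.1% of all regions). The regions had 576 different nearest genes, of which 544 had 1 region, 29 had 2 and 3 had 3. The 3 were Myo1e, a myosin of membrane tension and phagocytosis, with all its regions in the first intron, and the noncoding AC162612.1 and Gm14283. All 3 regions of Gm14283, within 7.20 kb, were called in both 24-month LPS libraries, and none of the 3 of Myo1e was. A nearest gene is a matter of distance and need not be the gene a region acts on. The 14 lists of genes described next together held 56 regions, of which 28 were called in both, 23 in the first only, 0 in the second only and 5 in neither 24-month LPS library. Over all 611 regions the same counts were 260, 260, 32 and 59.

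Signalling from the LPS receptor was represented by 5 regions, of 218 regions nearest to that list (0.818% of LPS-opened against 0.452% of all regions). Tlr4 itself, the receptor, had a region in its first intron, 1.25 kb from the TSS (chr4:66828735-66829002). It stood at 40.1 and 38.0 at 3 months, 47.9 and 36.3 at 14 months and 26.3 and 20.0 at 24 months of LPS, and at 7.88 in the second 24-month PBS library. Both aged LPS values were below all 4 younger ones. Ticam2, an adaptor of the receptor, and Tbk1, a kinase upstream of interferon, had regions at 14.6 to 37.8 and 14.8 to 32.9 in the younger LPS libraries.

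The kinase Map3k8, which links the receptor to the MAP kinases, had a region in a coding exon at 65.9, 57.6, 52.0 and 8.34 in the younger LPS libraries and at 33.7 and 56.2 in the aged ones. The 4 younger values spread widely, with the second 14-month library apart from the rest. Dusp2, a phosphatase that switches MAP kinases off, had the strongest region of the list. It lay 13.1 kb upstream (chr2:127322707-127323312) and stood at 71.5, 69.1, 68.3 and 69.8 in the younger LPS libraries, a mean of 69.7 ± 1.37 (SD, n = 4). At 24 months it stood at 72.5 in the first LPS library, was not called in the second, and stood at 18.1 in the second PBS library.

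Inflammatory NF-κB targets had 11 regions near 9 genes, of 218 regions nearest to the list (1.80% of LPS-opened against 0.452% of all regions). None of the mirror set lay nearest to this list. The first 24-month LPS library called 10 of the 11 and the second called 2, namely those of Cflar and Tnfaip2. Over all 611 regions the shares were 85.1 and 47.8%. No region of the list was called in the second library only, against 32 of the 611. Of the 11, 7 held an AP-1 match and 5 were also called in a 24-month PBS library. Of the 611 regions 330 and 249 were.

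Among these were inhibitors of the same response. Il1rn, which encodes the antagonist of the interleukin-1 receptor, had a first-intron region (chr2:24341478-24341879) at 49.9 and 53.4 at 3 months and 48.3 and 7.89 at 14 months. It stood at 58.1 in the first 24-month LPS library and had no peak in the second or in aged PBS microglia. Nfkbia, which encodes IκBα, had a pair of regions 25.6 and 26.1 kb downstream of its TSS. The stronger stood at 43.3, 46.8, 51.6 and 30.1 in the younger LPS libraries and at 56.4 in the first 24-month LPS library, above all of them. The weaker stood at 21.5, 31.5, 31.2 and 14.8, and at 41.9 in that library. The second 24-month LPS library called neither. Tnip1, a partner of the deubiquitinase A20, had a first-intron region at 34.9 to 49.8, and 59.8 in the first 24-month LPS library. Cflar, an inhibitor of caspase-8, had a region at 54.6 to 62.0, and at 54.5 and 36.8 in the aged LPS libraries.

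Chemokine genes formed the other part of the list. The region 3.41 kb from Ccl4 (chr11:83665228-83666411) stood at 39.6 and 52.6 at 3 months, 43.2 and 24.5 at 14 months and 67.7 in the first 24-month LPS library, the highest of its values. The promoter of Ccl5 (chr11:83530400-83530793) stood at 45.3, 43.6, 14.8 and 24.2, and at 20.6 in that library, and held an NF-κB match. The nearer region of Ccl12 stood at 17.8 to 48.0 and at 9.49. Cxcl10 had a weak region at 0.93 to 34.7, and at 18.7. None of these 4 was called in the second 24-month LPS library or in aged PBS microglia. A farther region of Ccl12, 20.8 kb upstream, stood at 2.42 to 20.5 and was called in neither aged LPS library. Of the 15 regions with an NF-κB match, 3 were called in both, 11 in the first only and 1 in neither. Over all 611 regions 260 were called in both, 260 in the first only, 32 in the second only and 59 in neither. These sets are small and their calls were not tested.

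Cytokine signalling through JAK and STAT had 8 regions near 7 genes (1.31% of LPS-opened against 0.427% of all regions). All 8 were called in the first 24-month LPS library and 4 in both, against 85.1 and 42.6% of the 611 LPS-opened regions. The region 12.8 kb upstream of Stat3, the main effector of interleukin-6 and interleukin-10 (chr11:100952003-100952600), stood at 71.7, 69.7, 58.9 and 59.7 in the younger LPS libraries and at 64.1 and 63.2 in the aged ones. It stood at 1.32 in the second 24-month PBS library. Aged and younger LPS values overlapped fully here. Feedback inhibitors of the pathway followed at lower rank. Ptpn1, a phosphatase that acts on JAK kinases, had a region at 39.5 to 60.7, and at 32.3 and 33.4 in the aged LPS libraries, and a weaker one at 13.4 to 25.5. The promoter of Cish, a SOCS family inhibitor, stood at 29.4 to 44.0 and at 40.5 in the first 24-month LPS library only. Socs1 (6.60 to 25.9), Ptpn2 (0.36 to 30.7), the receptor subunits Il10ra (20.2 to 47.7) and Osmr (14.8 to 25.7) completed the group.

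Transcription factors of the AP-1, C/EBP and immediate early families had 4 regions (0.655% of LPS-opened against 0.383% of all regions). Bach1, a repressor that heme releases from DNA, had an intron region (chr16:87724789-87725284) at 57.8, 56.6, 64.1 and 55.6 in the younger LPS libraries, a mean of 58.5 ± 3.80 (SD, n = 4), and at 57.0 in the first 24-month LPS library. It had no peak in the second or in aged PBS microglia. Cebpd, a C/EBP factor of the acute phase, had a region 61.1 kb away at 61.0, 62.5, 46.8 and 22.6, and at 45.8 and 65.0 in the aged LPS libraries. With Map3k8, Ptpn1 and Ptpn2 it was one of 4 listed regions to rank higher in the second than in the first aged LPS library. Jdp2, an AP-1 repressor, stood at 43.0 to 55.6 and at 33.6 and 18.6 at 24 months, and Myc at 1.72 to 39.4 and at 14.3 and 8.39. Myeloid lineage factors had 4 regions, near Tcf4, Etv6, Smad3 and Runx1, a share of 0.655% of LPS-opened regions against 0.748% of all. The Etv6 region, at 10.6 to 38.9, was called in neither aged LPS library.

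Glucocorticoid-responsive genes had 7 regions (1.15% against 0.363% of all regions). Both aged LPS libraries called 5 of them, against 42.6% of the 611 LPS-opened regions. Of these 7, 2 were the Nfkbia regions given above. The promoter of Mt2, a metallothionein that binds zinc and responds to stress, held a pair. The upstream one, 0.883 kb from the TSS (chr8:94171352-94171920), stood at 73.3 and 60.7 at 3 months, 64.2 and 44.5 at 14 months, and 69.4 and 13.4 at 24 months of LPS. The one over the TSS (chr8:94172305-94172992) stood at 68.5, 61.3, 42.4 and 20.8, then 59.7 and 18.3, and at 26.2 in the first 24-month PBS library. Both stood lowest in the second 24-month LPS library. Nr3c1, the glucocorticoid receptor, had a region 68.9 kb upstream at 19.2 to 41.3, and at 24.9 and 23.7 in the aged LPS libraries. Gadd45g (31.6 to 48.6) and Ddit4 (12.2 to 32.0) were called in both. Metal handling had 4 regions, the Mt2 pair, the zinc importer Slc39a14 (16.0 to 45.0) and the metal reductase Steap4 (13.7 to 35.8), a share of 0.655% against 0.182%.

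Lipid genes had 4 regions (0.655% against 0.415%). B4galt5, a galactosyltransferase of glycolipid synthesis, had the highest, at 62.8, 70.0, 56.5 and 50.6, then 69.3 and 28.3 in the aged LPS libraries. Pla2g4a, which releases arachidonic acid for prostaglandin synthesis, had an intron region at 47.4, 50.3, 49.1 and 21.8, then 17.5 and 6.87, both below all 4 younger values. Abca1, a cholesterol exporter, stood at 33.5 to 50.3 and Lpin2, a phosphatidate phosphatase, at 14.4 to 32.1. The list of glycolysis and hypoxia had a single region (0.164% against 0.176%), at the promoter of Acod1 (chr14:103046798-103047073), which makes the antimicrobial metabolite itaconate from an intermediate of the citrate cycle. It stood at 5.31, 5.91, 19.7 and 15.9 in the younger LPS libraries and at 36.6 in the first 24-month LPS library, above all 4. It held an NF-κB match.

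Lists of microglial states, phagocytosis and adhesion had shares near those over all regions. The homeostatic list had 2 regions (0.327% against 0.452% of all regions), near the receptor Fcrls (6.67 to 26.4) and the endocytic protein Bin1 (5.46 to 21.7), and 7 of the mirror set. The list of disease-associated microglia had 2 (0.327% against 0.265%), near the secreted phosphoprotein Spp1 (11.5 to 44.4) and the integrin Itgax (0.49 to 26.4). Phagocytosis and lysosome genes had 3 (0.491% against 0.431%), near the integrin Itgb2 (34.5 to 55.9), the proton pump subunit Atp6v0a1 (25.0 to 47.4) and the receptor Trem1 (10.2 to 39.7), all called in both aged LPS libraries. Adhesion genes had 4 (0.655% against 0.506%), near Itgb2, Itgax, the chemokine receptor Ccr7 (27.0 to 47.3) and the cytoskeletal linker Msn (16.7 to 40.0). Of these 4, Itgb2, which is in both lists, alone was called in both aged LPS libraries. Over all 611 regions 42.6% were called in both, and the calls of sets of 3 or 4 regions were not tested.

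Antigen presentation had 3 regions (0.491% against 0.172%), none of them called in both aged LPS libraries, against 42.6% of all 611 regions. A region at the promoter of Ciita (chr16:10489122-10489398), the master activator of class II genes, stood at 14.3 and 20.9 at 3 months and 18.4 and 1.07 at 14 months. A region of 247 bp, 0.536 kb from the TSS of Cd74, the invariant chain, stood at 3.54 and 14.2, then 18.5 and 6.39. Neither region was called in any 24-month library. These calls describe small peaks and not the whole promoters. The region in the first intron of Cd86, a ligand that co-stimulates T cells, stood at 4.42 to 43.6, and at 39.4 in the first 24-month LPS library only. All 3 ranked below the median of the 611 regions. Of the marker lists of other cell types, only the granulocyte list had a region, 13.4 kb from Cxcr2, a receptor for neutrophil chemokines (7.16 to 43.0). Its part in the result was not tested.

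**Figure D5:**
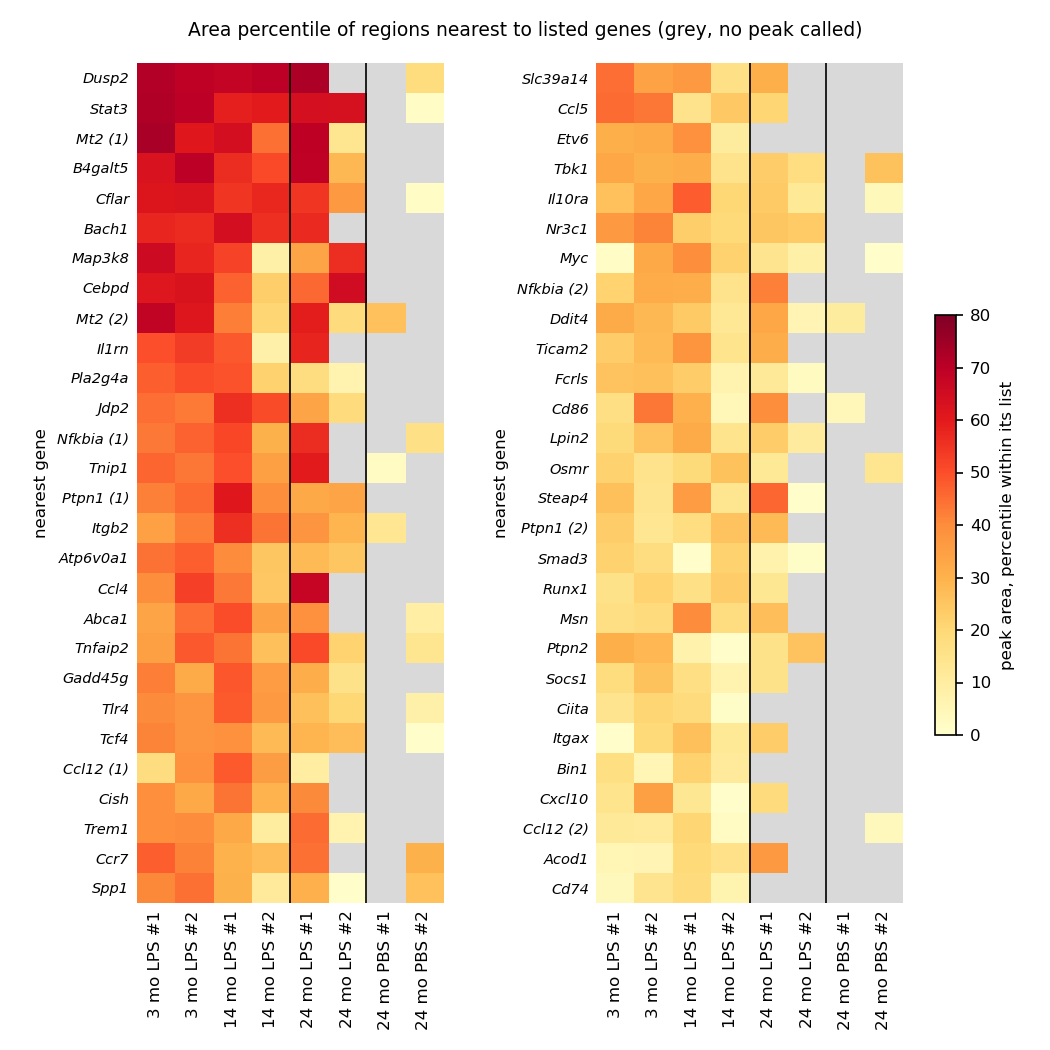
Peak area as a percentile within its list (colour, 0 to 80) for the 56 LPS-opened regions nearest to genes of the 14 functional lists (rows, by rank; a number in brackets marks a gene with 2 regions) in the 6 LPS and the 24-month PBS libraries (columns; # gives the replicate), with grey where no peak was called. The first 24-month LPS library calls 51 of the 56 and the second 28.

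At promoters, the strongest regions outside the lists belonged to genes with no shared role. After Mt2 came Cxcr5, the receptor for the B-cell chemokine CXCL13, at 52.5, 55.2, 56.6 and 45.5, against 2.66 and 11.5 in the aged LPS libraries. Aig1, a lipid hydrolase, stood at 37.3 to 61.5 and at 59.5 and 38.8 with age. Chac1, which breaks down glutathione, stood at 35.7 to 60.3, then 36.1 and 25.5. Trim72 (30.0 to 55.6) was called in the second aged LPS library only, at 42.8, and Gas7 (21.1 to 56.0) in both. The promoter of Synpo, an actin-binding protein, stood at 30.1, 41.4, 50.2 and 42.5 and was the strongest of the 59 regions called in neither aged LPS library. Others called in neither lay near Plekho1 (25.0 to 51.9), Lypla2, a depalmitoylating enzyme (27.3 to 40.7), and the noncoding Gm41043 (16.3 to 39.1) and Gm19708 (6.25 to 41.8).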

How the data were processed

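ATAC-seq peak lists of 12 microglial libraries were analysed, grouped by age and treatment as their titles give them. By the study's methods and the submitters' processing notes, reads were trimmed with Cutadapt 2.8, aligned to mm10 with Bowtie2 2.4.1, freed of duplicates with SAMtools and passed to Genrich, and peaks were called per library (other versions, and any transposase shift, not given in the sources used here). Methods and labels differ on the interval after injection and on whether sorted cells or nuclei were used. The deposited peak area is a score of the authors' caller, without normalization between libraries. The deposited significance at the summit is −log10 p, unadjusted; the adjusted column holds no values, so −log10 p took its place in 1 alternative. Summits came from the authors' offsets. Lists hold no counts, so depth is unknown, no count model could be fitted, and a region without a peak may be open below the threshold.

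Peaks on other contigs (29 to 40 per list) were left out. No peak lay past a chromosome end of GRCm38.p6. Calls, percentiles, nearest TSS (GENCODE M21 basic, promoter within 1 kb) and matches to 13 consensus sequences were computed with Python 3.11.15, pandas 2.3.3, numpy 2.4.6 and scipy 1.17.1, in scripts tested on simulated data. Members, gene lists and motifs were chosen with earlier results of these data known. Named were the 12 largest regions by median area percentile in the 4 younger LPS libraries with a protein-coding nearest gene, the 8 largest at protein-coding promoters, all regions nearest to the 14 functional lists, the 6 largest called in neither 24-month LPS library, the 6 largest called in a 24-month PBS library, and genes with at least 3 regions. Tet2 and Cxcr2 were named after their values were seen. 1 listed gene is not reported here. No test was run on the regions. Alternatives changed the lists, the merging, the rule, the libraries, the promoter and the motif window, and 1 was added after seeing the data.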

Additional observations from a re-analysis of the deposited data

How the results depend on the processing

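Which regions met the rule depended on the lists more than their number did. With lists of equal length 875 regions met it and held 281 (46.0%) of the 611, and without the fifth of each list with the smallest area 503 met it and held 231 (37.8%). With peaks merged across gaps, with summit regions and with 50% of a region covered, 94.8% or more of the 611 were kept. The AP-1 share was 44.3% with lists of equal length, and 46.6% with C or G in the middle, a setting chosen after seeing the data. The share within 1 kb of a TSS was 15.4% with summit regions, 7.36% with protein-coding genes only, and 26.0% when 3 kb counted as promoter. With no call allowed in 24-month PBS, 362 regions remained, of which 35.4% were called in both 24-month LPS libraries and 52.8% in 1. Without both the second 14-month and the second 24-month LPS library 1079 regions met the rule, 75.3% were called in the remaining 24-month LPS library and 24.7% were not, and 45.4% held AP-1. Leaving out 1 library at a time gave 616 to 1079 regions (888 without either 24-month PBS library, 1079 without the second 14-month LPS library), 45.4 to 54.7% with AP-1, 11.1 to 11.9% within 1 kb of a TSS and a median percentile of 23.2 to 31.1. The share called in every 24-month LPS library left was 33.2 to 85.1%, in 1 of them 42.2 to 51.2% and in neither 6.64 to 52.2%. The cause of these shifts was not tested, except that a looser rule by construction admits more regions. The regions nearest to inflammatory NF-κB targets numbered 6 with no 24-month PBS call and 18 without either 24-month PBS library, and 8 to 14 in the other settings. The remaining 42 of 54 values outside the omission of single libraries stayed within 1.5 times the reported count, the Wilson interval of the reported share or 1 SD of the library medians. Counts of regions nearest to the 14 lists stayed within 1.5 times the reported count in 200 of 252 cases, with single libraries left out among them. Depth limits the calls by an unknown amount. No paired analysis was possible because the results are calls and shares that come from no test.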
